A study of Mus musculus with 5 samples.

Results

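Leukocyte integrins were examined in mouse bone marrow cells sorted as FLT3+/CD11b+, which the labels name dendritic cell (DC) progenitors. The members were the probe sets whose platform gene symbol is Itgam, Itgal, Itgax, Itgb2, Itga4, Itga6, Itgb1, Itgb7, Itgb3 or Itga2b. Of these 10 listed genes, 9 were measured, by 13 of 12422 probe sets. Itga2b (CD41), the platelet alpha chain, had no probe set listed under its symbol and was not analysed here. The series holds 5 samples of total RNA, each on 1 one-colour array, all in 1 group. FLT3 is a receptor tyrosine kinase of early progenitors, and CD11b is the protein encoded by Itgam. No strain, age, treatment, animal or pool is named in the labels. The samples may therefore be biological or technical replicates, and every spread given below is that between these 5 arrays. With a single sorted population there is no condition to compare, so the data give each chain's signal, its position within each array and its spread over the samples.

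An integrin is a pair of an alpha and a beta chain at the cell surface that binds matrix or a receptor on another cell. The beta 2 chain Itgb2 (CD18) joins Itgal (CD11a) to form LFA-1, Itgam to form Mac-1 and Itgax (CD11c) to form a receptor used as a marker of mouse dendritic cells. The alpha 4 chain Itga4 (CD49d) pairs with Itgb1 (CD29) or Itgb7, and these receptors hold progenitors to marrow stroma and bring leukocytes to tissue. Talin and kindlin bind the tail of the beta chain and switch the receptor to its binding form.

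Itgam and Itgax are neighbours on mouse chromosome 7 with 0 protein-coding genes annotated between them. For each, 250 bases of promoter before a RefSeq transcript start are shown. The pair was picked because their signals differed in pattern over the samples. Capitals mark the letters GAGGAA, the core of the PU box bound by the myeloid factor PU.1, searched on both strands (TTCCTC on the strand shown). Sequences are from RefSeq, build GRCm38.p6, plus strand, at chr7:128062390-128062639 for Itgam and chr7:128129300-128129549 for Itgax. The Itgax window includes the first 24 bases of the annotated gene, since the transcript start used lies inside it.
Itgam: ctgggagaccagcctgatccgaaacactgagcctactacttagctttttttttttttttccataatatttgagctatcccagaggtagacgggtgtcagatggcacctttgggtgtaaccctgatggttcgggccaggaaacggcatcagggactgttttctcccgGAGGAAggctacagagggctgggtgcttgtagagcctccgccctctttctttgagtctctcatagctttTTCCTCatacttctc
Itgax: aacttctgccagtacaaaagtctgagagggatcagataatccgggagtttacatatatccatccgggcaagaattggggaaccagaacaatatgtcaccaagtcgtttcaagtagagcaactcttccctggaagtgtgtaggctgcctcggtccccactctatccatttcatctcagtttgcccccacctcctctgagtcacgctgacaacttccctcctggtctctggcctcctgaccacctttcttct
The Itgam window held 2 matches, beginning 84 and 15 bases before the start, and the Itgax window held 0. Of 32851 promoters of the same length, 23.3% held at least 1 match and 3.54% held 2 or more. Promoters of 6 of the listed genes were in the table, and 3 of these had a match (Itgam, Itgb1 and Itga2b). A search for exact letters does not show that the Itgax window lacks PU.1 sites. The part of PU.1 or of these matches in either signal was not tested.

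Signals are array intensities scaled to a common median of 103.4. An array's median served as a limit, since no detection call came with the values. A probe set's position against its own array's median can be read, but signals of different probe sets cannot be compared as amounts of RNA. The control probe sets give a ratio of 3' to 5' signal, which was highest in sample 3 for Gapdh (4.52, against 0.896 to 3.42 elsewhere) and for the transferrin receptor (16.7, against 3.14 to 8.63), and highest in sample 4 for actin (5.20). In sample 1 the brightest 1% of probe sets lay a median of -0.63 log2 units from the mean of the other arrays, and in sample 4 they lay at 0.48. The part of these differences in the results was not tested.

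Both genes of the sort were above the array median in every sample, Flt3 by the brighter of its 2 probe sets. The other Flt3 probe set is not reported here. Flt3 had signals of 571, 1212, 353, 1268 and 318 in samples 1 to 5, with samples 2 and 4 high and samples 3 and 5 low. Of 10 genes of the sort and of dendritic cell progenitors, 8 were above the median on all 5 arrays; the other two were Irf8, a factor needed for dendritic cell development, on 4 arrays and Cd34, an antigen of early progenitors, on 3.

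Of the 9 measured integrin chains, 5 were above the array median on all 5 arrays, namely Itgam, Itgb2, Itga6, Itgb1 and Itgb7. Across all 8251 named genes this share was 44.5%, which is the background for every such count of genes given here. Another 3 chains (Itgal, Itgax and Itga4) were above it on some arrays, and Itgb3 was above it on 0. Among the chains above the limit on every array were the beta chains of the beta 1, beta 2 and beta 7 families. With the limit raised to the 75th percentile of each array, 3 chains were above it on every array, and all 3 were beta chains (Itgb2, Itgb1 and Itgb7); 21.7% of named genes were above that limit.

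**Figure D1:**
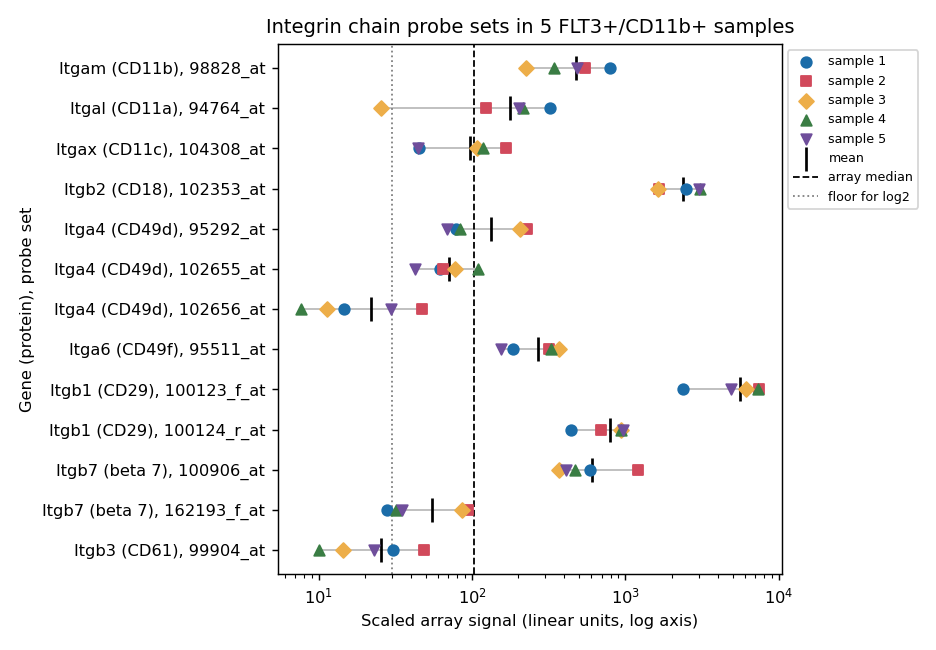
Scaled signal (log axis) of the 13 integrin probe sets in 5 samples; each point is 1 array, black ticks are means, the dashed line is the common array median of 103.4 and the dotted line the floor of 30.0 applied before log2. All points of Itgam, Itgb2, Itga6, Itgb1 and the brighter Itgb7 probe set lie above the median, while all points of Itgb3 lie below it.

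Itgam, the CD11b chain by which the cells were sorted, had signals of 789, 546, 223, 343 and 486 in samples 1 to 5, a mean of 477 ± 215 (SD, n = 5). Sample 1 was highest and sample 3 lowest, a range of 3.54-fold, although all samples carry the same sort label. Its rank within the array ran from the 68.3rd percentile in sample 3 to the 89.8th in sample 1. The SD of its log2 signal was 0.69, against 0.44 for probe sets of the same level by limma's trend. This did not pass the variance test over all probe sets (limma, adjusted p = 0.943).

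Itgal, the alpha chain of LFA-1, varied more between samples than the other tested chains. Its signals were 321, 122, 25.4, 216 and 201 in samples 1 to 5, a mean of 177 ± 110.4 (SD, n = 5). Sample 3 stood below the other samples, under the floor of 30.0 and at the 24.2nd percentile of its array, while the other arrays placed the probe set between the 53.8th and 75.3rd. The SD on the log2 scale was 1.33 with sample 3 set to the floor, against 0.63 for the trend. Its unadjusted p for variance was 0.0401 and its adjusted p 0.925 (limma), and the unadjusted p was 0.374 without sample 3. Over all settings tried the adjusted p ran from 0.650 to 0.996.

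Itgal is abundant in lymphocytes, and markers of those cells were mostly low. Of 9 measured T and NK cell markers 0 were above the median on every array, and Cd3e, part of the T cell receptor complex, had 23.7 ± 11.6 (SD, n = 5). Of 8 B cell markers only Ighm, the IgM heavy chain, was above it on every array. Summed over the T and NK list, signal was 340, 231, 349, 220.2 and 554 in samples 1 to 5. It was lowest in sample 4 and highest in sample 5. Summed over the B cell list, it was lowest in sample 3 at 876 and highest in sample 1 at 1381. Without Ighm these samples were again lowest and highest, at 320.2 and 744, and sample 5 followed at 680. Of the 8 B cell markers, 5 were lowest in sample 3 but only 2 were highest in sample 1. One of these 2, Cd79a, had 265 in sample 1 against 16.7 to 123 elsewhere. Ighm was highest in sample 2. Like the B cell sum, but unlike the T and NK sum, Itgal was lowest in sample 3 and highest in sample 1. The part of B, T or NK cells in the Itgal signal was not tested.

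Itgax, the CD11c chain, was near the array median. It had signals of 44.8, 167, 108, 117 and 44.04 in samples 1 to 5, above the median in samples 2, 3 and 4 and below it in samples 1 and 5. The mean was 96.2 ± 52.4 (SD, n = 5). Its mean log2 signal was below the median, so it was not among the probe sets tested for variance. Of 10 mature dendritic cell markers, 2 were above the median on every array, the actin-bundling gene Fscn1 and the MHC class II invariant chain gene Cd74. Itgam was highest in sample 1, where Itgax was 0.91 log2 units below its own mean.

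Itgb2, the shared beta chain of these receptors, had signals of 2475, 1645, 1641, 3061 and 3017 in samples 1 to 5, a mean of 2368 ± 701 (SD, n = 5). It lay between the 95.2nd and the 98.1st percentile of every array. Samples 2 and 3 were low and nearly equal, and samples 4 and 5 were high and nearly equal; after quantile normalization sample 5 was highest at 3467, sample 1 followed at 2851 and sample 4 had 2466. Its log2 SD of 0.45 was the smallest among the chains tested, close to the 0.46 of the trend (limma, adjusted p = 0.995).

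The ratio of each alpha chain to Itgb2 differed between the arrays, and no test of the ratios was run. By root mean square difference of the centred log2 values, Itgam lay 0.64 and Itgal 0.93 from Itgb2. The median over 4556 genes was 0.57, so Itgam was about as far from Itgb2 as the median gene. A ratio within an array drops the scaling of that array, so only unequal change can be read from it. The SD of the log2 ratio to Itgb2 was 0.72 for Itgam, 1.04 for Itgal and 1.19 for Itgax. Relative to Itgb2, Itgam was high in samples 1 and 2, at 0.73 and 0.79 log2 units over its mean ratio, and lowest in sample 4, at -0.78. Itgal was lowest against Itgb2 in sample 3, at -1.73; its signal there was set to the floor, so this size is set by the floor. The SD of the Itgal ratio was 1.14 with the floor at the 5th percentile and 0.44 without that sample. Itgax ran from -1.33 in sample 5 to 1.47 in sample 2.

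**Figure D2:**
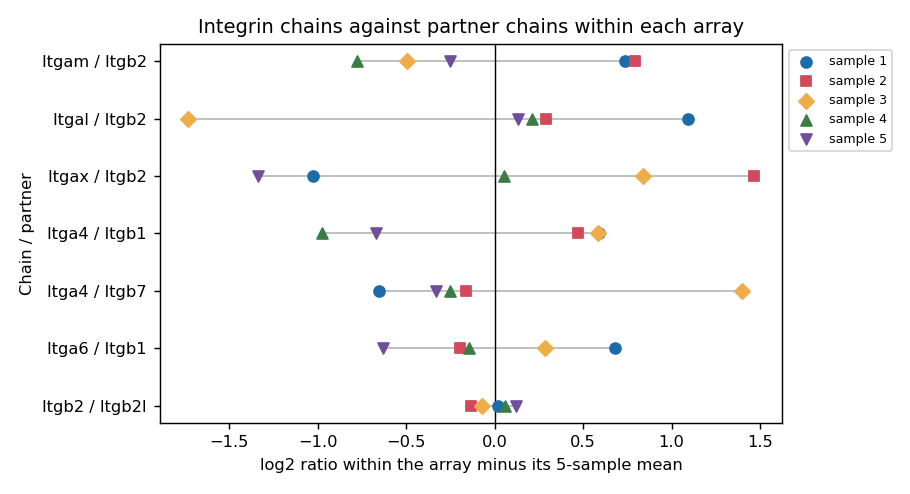
Within-array log2 ratio of each integrin chain to a partner chain, minus the ratio's 5-sample mean; each point is 1 array and grey lines join the extremes. The 3 ratios to Itgb2 as partner span 1.57 to 2.82 log2 units, and the ratio of Itgb2 to its paralogue Itgb2l spans 0.25.

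Neutrophils and monocytes carry Mac-1, and most of their markers were above the array median. Of 9 neutrophil markers 7 were above the median on all 5 arrays, and of 9 monocyte and macrophage markers 7 were. Summed neutrophil marker signal was 49621 in sample 1, 170818 in sample 2, 124872 in sample 3, 257142 in sample 4 and 157069 in sample 5. Sample 4 was highest for 8 of the 9 markers, against 28.0% of all tested probe sets. Itgb2 was highest there as scaled to the median, though not after quantile normalization. Sample 1, where Itgam was highest, was lowest for 4 of the 9, against 27.9% of all tested probe sets. Among the others, Ltf, Camp and Lcn2 were lowest in sample 2. The brightest 1% of all probe sets also lay low in sample 1 and high in sample 4, at -0.63 and 0.48 log2 units. The part of this in the marker sums was not tested, and the sums were not repeated after quantile normalization. Summed monocyte marker signal ran from 9408 in sample 1 to 20592 in sample 4, mostly from the lysozyme gene Lyz2. Without Lyz2 it ran from 2900.2 in sample 5 to 4860.2 in sample 2. The part of these cells in the integrin signals was not tested. In bulk RNA of this kind, fewer cells of a type and less RNA per cell cannot be told apart.

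A close relative of Itgb2 had nearly the same pattern. Itgb2l, the beta 2-like chain also called pactolus, had signals of 1384, 1023, 979, 1665 and 1575 in samples 1 to 5, a mean of 1325 ± 314 (SD, n = 5). The SD of the log2 ratio of Itgb2 to Itgb2l was 0.10 (0.13 after quantile normalization), and by root mean square difference of the centred log2 values Itgb2l was the 3rd nearest of 4556 genes to Itgb2 (0.09, against a median of 0.57). The paralogues share sequence and the probes were not examined here, so it cannot be told how far each probe set reads the other gene. Itgb2l was singled out after its values were seen.

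Itgb1 (CD29), the beta chain of the fibronectin and laminin receptors, was read by a pair of probe sets. The brighter, of the kind whose probes may match related sequences, had signals of 2357, 7404, 6139, 7332 and 4878 in samples 1 to 5, a mean of 5622 ± 2096 (SD, n = 5). The other, listed under the same sequence record and so not an independent reading, had 441, 697, 938, 942 and 966. Both were above the median on every array, and both were lowest in sample 1. They deviated to the same side of their means in 3 of 5 samples. The brighter was highest in sample 2, where the other lay at -0.13 log2 units from its mean, and the other was highest in sample 5. The brighter probe set lay 1.14 log2 units below its mean in sample 1 (a deviation of -1.14) and the other -0.80. After quantile normalization, which takes up the lower top end of sample 1, the deviations were -0.95 and -0.75, and sample 1 stood apart from the others for the brighter probe set by Dixon's ratio (0.736, critical value 0.71). In the values scaled to the median, that ratio was 0.635 and did not pass.

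Itga4, the alpha 4 chain, gave 3 probe sets that disagreed. The brightest had signals of 78.9, 228, 205, 82.9 and 68.2 in samples 1 to 5, with samples 2 and 3 above the median and the others below. Its mean log2 signal was 0.16 above the median, but -0.08 without sample 2 and -0.04 without sample 3. The next had 61.3, 64.6, 77.2, 109 and 42.3, with only sample 4 above the median. The third was below the median on every array and under the floor of 30.0 on 4, with sample 2 at 47.2. The higher level of Itga4 in samples 2 and 3 together was thus seen with 1 of 3 probe sets. The first pair of probe sets deviated to the same side of their means in 3 of 5 samples, with a root mean square difference of 0.78 log2 units.

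Itgb7, the partner of alpha 4 in gut-homing cells and mast cell progenitors, had signals of 588, 1210.2, 368, 467 and 407 in samples 1 to 5 by its brighter probe set, a mean of 608 ± 347 (SD, n = 5). Sample 2 was high and the others lay together between 368 and 588. The other probe set, of the kind whose probes may match related sequences, had 28.0, 93.6, 86.2, 31.7 and 34.9. It was below the median on every array and was also highest in sample 2. The probe sets disagreed in sample 3, where the brighter was lowest (-0.58 log2 units from its mean) and the other lay at 0.83. Against 44.5% of all named genes, mast cell, basophil and eosinophil markers above the median on every array were 4 of 9. Their summed signal was highest in sample 2, at 4352 against 2056 to 3526 elsewhere, of which the mast cell protease gene Cpa3 gave 2132. Without Cpa3 it was highest in sample 4 at 2472, against 2219 in sample 2. The part of these cells in the Itgb7 signal was not tested. The variance of Itgb7 did not pass (limma, adjusted p = 0.943).

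**Figure D3:**
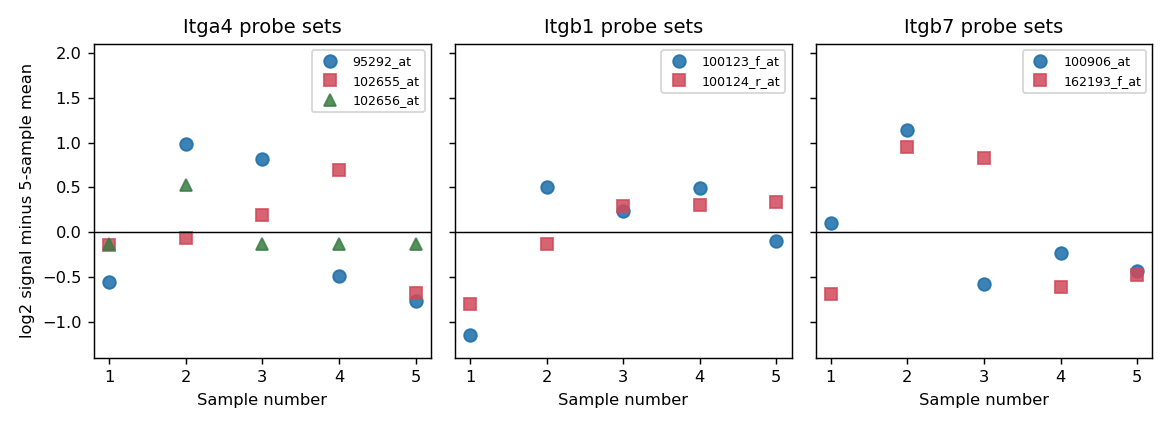
Log2 signal of each probe set minus its own 5-sample mean, for the 3 chains read by more than 1 probe set; each point is 1 array and values under the floor are set to it. The Itgb1 probe sets are both lowest in sample 1, while the Itgb7 probe sets lie on opposite sides of 0 in sample 3.

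Itga6 (CD49f), the laminin receptor alpha chain found on stem cells and megakaryocytes, had signals of 186, 318, 368, 326 and 155 in samples 1 to 5, a mean of 270.4 ± 93.9 (SD, n = 5). Samples 2, 3 and 4 lay together above samples 1 and 5, a range of 2.37-fold. The log2 SD was 0.55 (limma, adjusted p = 0.983). Against Itgb1, its partner, the log2 ratio had an SD of 0.50, and of 0.61 with the dimmer Itgb1 probe set. The ratio of Itga4 to Itgb1 had an SD of 0.76 and that of Itga4 to Itgb7 0.80, which was 0.21 without sample 3. With other probe sets the latter ran from 0.17 to 0.93.

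Itgb3 (CD61), the platelet and osteoclast beta chain, had signals of 30.4, 48.6, 14.4, 9.95 and 22.9 in samples 1 to 5. All were below the median and 3 of 5 under the floor, so no order is read among those. Of the 8 member probe sets bright enough to be tested for variance, 0 had a sample that stood apart by Dixon's ratio, against 6.04% of all such probe sets. Of 6 measured megakaryocyte and platelet markers, 2 were above the median on every array, the adhesion genes Vwf and Selp, which endothelial cells also express. The platelet chemokine gene Pf4 had 18.9 ± 13.8 (SD, n = 5), above the median on 0 arrays. Gp9 and Gp1bb, subunits of the von Willebrand factor receptor, were above it in samples 2 and 4 only, Gp9 at 125 and 186 and Gp1bb at 157 and 117.

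**Figure D4:**
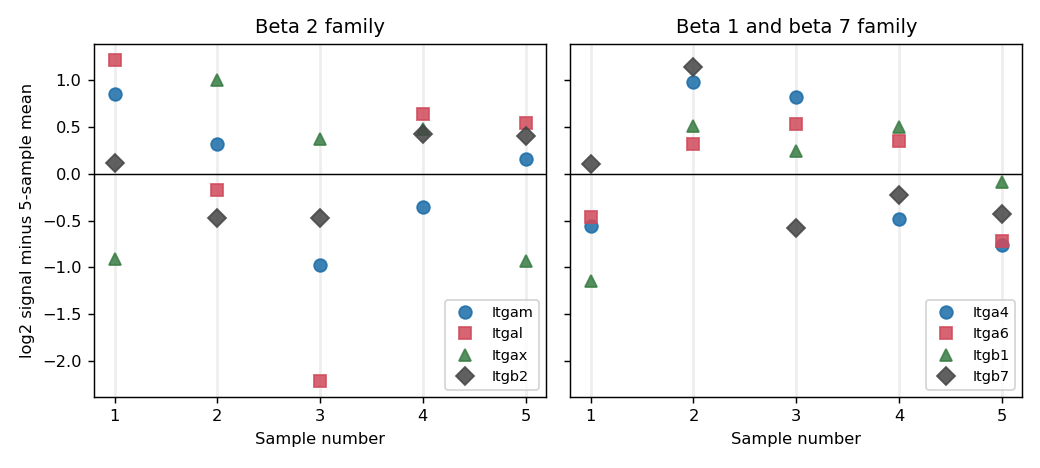
Log2 signal minus the 5-sample mean for the chains of the beta 2 family (left) and of the beta 1 and beta 7 families (right), 1 point per array, each gene by its brightest probe set. Itgam, Itgal and Itgb2 are all below their means in sample 3 (-0.97, -2.21 with Itgal at the floor, and -0.47), where Itgax, Itga4, Itga6 and Itgb1 are above theirs.

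Among samples, sample 3 held the lowest signal of 4 of the 7 tested chains, Itgam, Itgal, Itgb2 and Itgb7, against 21.6% of all tested probe sets; for Itgb2 it was 1641 against 1645 in sample 2, an order that turned after quantile normalization (1659 against 1579). Sample 3 also held the highest Itga6 signal. Sample 2 was highest for 3 chains, Itga4, Itgb1 and Itgb7, against 21.4% of all tested probe sets. This was read from the brightest probe set of each gene. The dimmer Itgb1 probe set was highest in sample 5 and the next Itga4 probe set in sample 4. The dimmest Itga4 probe set, mostly under the floor, and the dimmer Itgb7 probe set were highest in sample 2. Sample 3 thus had the highest Gapdh and transferrin receptor 3' over 5' ratios and the lowest Itgam and Itgal signals. Sample 1 had the lowest ratios for actin (1.08), Gapdh (0.896) and the transferrin receptor (3.14), and the highest Itgam and Itgal signals. The part of RNA quality was not tested. Itga4, Itga6 and Itgb1 lay above their own means in sample 3 and below them in sample 1.

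For the test of variance, 8 probe sets of 7 chains had a mean log2 signal above the median. Itgax and Itgb3 were not tested. Limma called 0 of the 8 probe sets at an adjusted p of 0.05, and 1, Itgal, at an unadjusted p under 0.05. Over all 5814 probe sets tested the called share was 0%, with 4.99% at an unadjusted p under 0.05. The median log2 SD of the 7 chains was 0.69 and that of all tested probe sets 0.47; 6 of 7 chains lay above the trend for their level, as did 46.1% of all tested probe sets. In simulated data with these levels and this spread of variances, 200 probe sets were given an SD 4 or 8 times as large; the test found 0 of them at the first size and 146 at the second. All of them went unseen at the first size, and some still did at the second. The 0 member probe sets called thus cannot show that any chain was steady between samples.

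**Figure D5:**
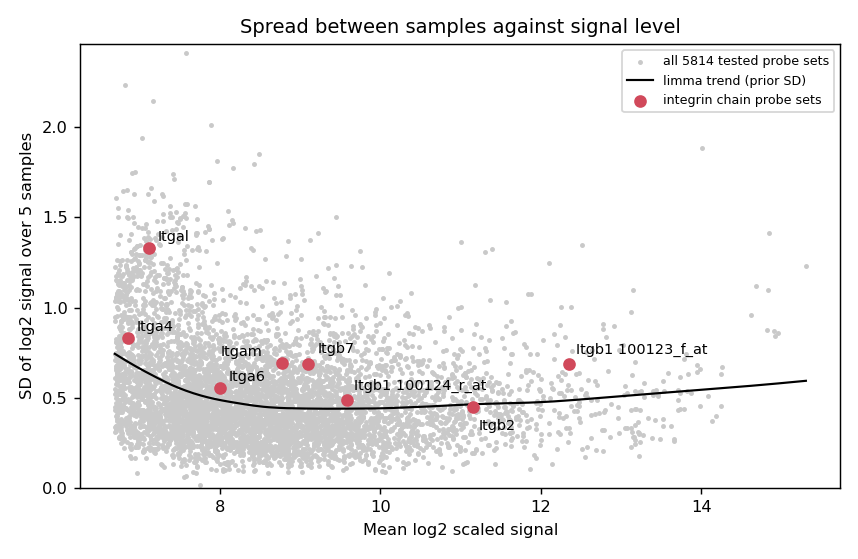
SD of log2 signal over 5 samples against mean log2 signal for 5814 tested probe sets (grey), with limma's trend (line) and the 8 tested integrin probe sets (red). Itgal, at an SD of 1.33, lies farthest above the line, and Itgb2, at 0.45, lies at it.

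The named genes with a pattern most like that of Itgam, by root mean square difference of the 5 centred log2 values among 4556 genes, were Use1, Clcn7, Lsm2, Atp6v0b and Dapk2. Use1, a SNARE protein of vesicle fusion, differed by 0.08 and had signals of 1317, 889, 403, 635 and 899 in samples 1 to 5. The others differed by 0.12 to 0.14, and the median gene by 0.77. Each was highest in sample 1 and lowest in sample 3. Of the other chains, Itgb7 was the nearest to Itgam, at 0.59, and Itgb2 lay at 0.64, Itgal at 0.78 and Itgb1 at 1.12. With 5 arrays and so many genes compared, near matches of this kind describe the arrays only.

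Around the members, 36 of 67 measured pathway genes (53.7%) were above the median on all 5 arrays, against 44.5% of named genes. With the limit at the 75th percentile, 21 of the 67 genes were above it, and the share of all named genes was 21.7%. Limma called 0 of the 39 pathway genes tested for variance, with 0 at an unadjusted p under 0.05. The lists differed among themselves. Tetraspanins and CD47, membrane proteins that travel with integrins, were above the median on all 5 arrays, the limit used for each list, in 8 of 8 genes. Cd47 had 7122 ± 3532, Cd9 1755 ± 424, Cd81 742 ± 183 and Cd151 395 ± 110.4 (SD, n = 5).

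Genes that switch integrins on were above the limit in 10 of 14 cases. Talin, Tln1, had 2059 ± 299, with samples between 1648 and 2322, and the blood cell kindlin, Fermt3, 1361 ± 545 (SD, n = 5). Rasgrp2, which activates the GTPase Rap1, had 328 ± 74.2. Rap1b, the main Rap1 form of platelets, had 112 ± 53.2 and was above the median on 3 arrays. Kinases and adaptors downstream of integrins were above it in 10 of 16 cases. The focal adhesion kinase relative Ptk2b had 655 ± 299, integrin-linked kinase, Ilk, 598 ± 135, paxillin, Pxn, 569 ± 199.7 and vinculin, Vcl, 1936 ± 654 (SD, n = 5).

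Other integrin chains were above the limit in 3 of 10 cases, Itgav, Itgb5 and Itgb2l, which were named after their values were seen. Several of the others were below the array median. Itga2, a collagen receptor chain, had 31.8 ± 29.6 and the fibronectin receptor chain Itga5 16.98 ± 8.90. The muscle laminin receptor chain Itga7 had 50.7 ± 21.7 (SD, n = 5). None of these was above the median on any array, and Itga3, at 102 ± 34.5, was above it on 2. Ligands and counter-receptors were above the limit in 5 of 19 cases. Fibronectin, Fn1, had 1403 ± 678 and was highest in sample 4 at 2603, while the LFA-1 ligand genes Icam2 and Icam1 had 226 ± 69.8 and 77.0 ± 32.6. Vcam1, the stromal ligand of alpha 4 integrins, had 135 ± 64.1 and was above the median on 3 arrays. Icam1 was above it on 2.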

How the data were processed

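The deposited intensity values of the authors, 1 per probe set and array on a linear scale, were used for 5 samples; the software and scaling that made them are not given in the sources used here. After leaving out 2% at each end, column means were 996 in sample 1 and 198 to 199 in the others. The 66 control probe sets were left out, arrays were scaled by 1 factor each so that their medians met at 103.4, and values under the 25th percentile (30.0) were raised to it before log2. The precision is limited by the number of arrays. Gene names came from the array's annotation table, in which 10833 of 12422 probe sets had 1 symbol; the 396 with several symbols and the 1193 without an entry stayed unnamed. The probe set brightest by mean log2 signal stood for its gene. The variance test used limma 3.58.1 in R 4.3.3 on probe sets whose mean log2 signal exceeded the median, with a robust F distribution, a trend on level and Benjamini-Hochberg adjustment. No pair of arrays was identical, and Pearson's r across 5814 probe sets ran from 0.791 to 0.907. Named genes were all members, Flt3, the first 4 measured genes of each pathway list, the 5 genes most like Itgam and genes that a small count singles out; marker genes outside this rule, such as Cd3e, Pf4, Gp9, Gp1bb, Cpa3 and Lyz2, were picked with their values in view. The members and lists were chosen with earlier results of these data known. Alternatives were other scalings, floors, limits, probe sets and filters, and each sample left out.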

Additional observations from a re-analysis of the deposited data

Results flagged for a closer look

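A pair of member probe sets had 1 sample far from the others by Dixon's ratio, for which the critical value with 5 samples is 0.71. The dimmest Itga4 probe set had a ratio of 1, with sample 2 at a signal of 47.2 and the other 4 samples under the floor of 30.0. Itgb3 had a ratio of 0.975, with sample 2 at 48.6, sample 1 at 30.4 and the other 3 samples under the floor. Values under the floor are tied at it, so the floor sets these ratios and they are no valid test of a single sample. Both probe sets are below the array median in every sample, and neither passed with the floor at the 5th percentile. Where values are not tied, chance flags about 1 in 20 groups.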

How the results depend on the processing

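Across 26 results and 225 alternative values, some of which could not move, 213 kept within their set limits, 10 moved and 2 reversed. The 2 were the mean log2 signal of Itga4 over the array median, 0.16, which ran from -0.081 without sample 2 to 0.35 with 1 sample left out, and was -0.041 without sample 3; without either, Itga4 left the variance test. The number of chains above the limit on every array was 5, was 3 when the 75th percentile served as the limit, and ran from 5 to 6 with 1 sample left out, Itgal being the chain gained without sample 3. Of 67 pathway genes, 36 were above it, and 21 at the 75th percentile. Outlying samples were found in 2 member probe sets and in 0 with the floor at the 5th percentile. Limma called 0 member probe sets under every setting. The ratio of Itga4 to Itgb7 had an SD of 0.80; with the dimmer Itgb7 probe set it was 0.17, 0.67 or 0.93 depending on the Itga4 probe set. The scaling to a trimmed mean was added after seeing the data. Some alternatives could not change a result. A level over its array's median is the same under any single scaling factor unless the floor is reached. Quantile normalization keeps the order within an array, and with it a probe set's side of the median. A lower floor leaves ratios between chains above the floor as they were. No paired analysis was possible because the series has 1 group.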
